A study of Homo sapiens with 95 samples.

Results

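The integrated stress response and the unfolded protein response of the endoplasmic reticulum (ER) were followed here through 10 genes: ATF4, ATF3, DDIT3, TRIB3, ASNS, CHAC1, SESN2, DDIT4, HSPA5 and HERPUD1. They were chosen by symbol, and all 10 were among the 23895 gene symbols listed for each of 95 wells. All wells held AALE cells, a line of immortalized epithelium from human bronchi. Their polyadenylated transcripts were counted at the 3′ end by the method 3′DGE, with a unique molecular identifier (UMI) for each captured molecule. The 8 populations fell into 2 families. The overexpression family carried FGFR1, PIK3CA, NRG1 or NRF2 (the product of NFE2L2), and its control carried an empty vector with the HcRed reporter. The CRISPR family was targeted at FAT1 or CDKN2A, and its control, GFP, received the Cas9-EGFP plasmid with no guide. After 24 h of growth towards confluency, wells received the vehicle DMSO or 1 of 3 carcinogens. These were BaP (benzo[a]pyrene, a polycyclic aromatic hydrocarbon) at 173 µM, NNK (a nitrosamine specific to tobacco) at 490 µM, and CSC, a condensate of cigarette smoke, at 24 µg/ml. The length of exposure, and whether the knockout populations were clones or pools, were not given in the sources used here.

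When amino acids run short or unfolded proteins collect in the ER, kinases phosphorylate the initiation factor eIF2alpha, general translation slows, and translation of the ATF4 messenger rises. ATF4 is a bZIP transcription factor that then switches on genes of amino acid supply, redox balance and feedback control, with DDIT3 (the protein CHOP) and ATF3 as further transcription factors of the same cascade. A separate arm, through ATF6 and XBP1, raises ER chaperones such as HSPA5 (the protein BiP) and genes of ER-associated degradation such as HERPUD1. Because ATF4 is controlled largely through translation, the level of its RNA is only part of its activity, and RNA alone was measured.

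The comparisons rested on the 82 wells with 1-digit replicate numbers, which made 31 groups, 25 of them with 3 wells. A replicate number of 2 digits marked the remaining 13 wells, and the labels did not say whether these were separate cultures. The 82 wells held 692446 to 1895735 UMI counts each. Every plate row held 1 chemical and each population kept its columns, so chemical and plate row, and population and plate position, cannot be told apart. These positions are those given for the profiled samples. The paper describes culture and exposure in plates with fewer wells, and the layout of the cultures was not given. NFE2L2, FGFR1, NRG1 and PIK3CA were at 3.39, 5.65, 417 and 5.47 times the HcRed level in their own populations under DMSO, and FAT1 and CDKN2A at 0.228 and 0.584 times the GFP level, with no overlap of wells in any of the 6. All 10 airway basal epithelial markers had a median above 0, with a sum of 751 to 1741 CPM, the UMI count scaled to the well's total. Summed fibroblast, leukocyte and endothelial markers reached at most 15.8, 46.3 and 5.42 CPM, multiciliated and secretory markers at most 1.44 and 0.77 CPM, and CDH5, VWF, FOXJ1 and SCGB3A1 were at 0 in all 82 wells. The second NRG1 well under NNK stood apart. Its counts differed from those of its 2 replicates by a chi-square per degree of freedom of 11.3 and 11.8, against 1.13 to 2.89 for the other 74 pairs of replicates. It entered NNK against DMSO, BaP against NNK, the response to NNK by population and the correlations over groups, and the values without it are given beside these results. Of the other pairs the highest values, 2.76 and 2.89, were those of the second CDKN2A well under DMSO. The other CDKN2A wells under DMSO were at 1.195 to each other.

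The upstream sequences of 4 members are shown because they hold letters long associated with the 2 arms of this response. Searched on both strands were the CARE, an ATF4 and C/EBP composite element written TGATGNAA, the ERSE, written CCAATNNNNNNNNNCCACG, and the ERSE-II, written ATTGGNCCACG. The ERSE and ERSE-II are bound by ATF6 and XBP1 together with partner factors. The 250 bases before each start are from RefSeq on GRCh38.p14, 5′ to 3′ on the gene's strand, with the matches in capitals. They lie at chr7:97872409-97872658 on the minus strand for ASNS, chr15:40953221-40953470 on the plus strand for CHAC1, chr9:125241344-125241593 on the minus strand for HSPA5 and chr16:56931892-56932141 on the plus strand for HERPUD1.
ASNS: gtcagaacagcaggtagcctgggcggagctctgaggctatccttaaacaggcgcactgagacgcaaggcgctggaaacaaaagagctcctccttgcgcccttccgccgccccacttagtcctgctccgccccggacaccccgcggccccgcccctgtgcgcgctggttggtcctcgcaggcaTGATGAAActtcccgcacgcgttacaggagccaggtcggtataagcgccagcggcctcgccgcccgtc
CHAC1: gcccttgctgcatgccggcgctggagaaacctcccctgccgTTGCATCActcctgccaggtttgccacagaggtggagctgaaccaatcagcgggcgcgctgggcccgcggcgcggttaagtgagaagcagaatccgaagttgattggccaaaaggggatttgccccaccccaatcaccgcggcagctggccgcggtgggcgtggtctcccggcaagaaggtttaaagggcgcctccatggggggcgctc
HSPA5: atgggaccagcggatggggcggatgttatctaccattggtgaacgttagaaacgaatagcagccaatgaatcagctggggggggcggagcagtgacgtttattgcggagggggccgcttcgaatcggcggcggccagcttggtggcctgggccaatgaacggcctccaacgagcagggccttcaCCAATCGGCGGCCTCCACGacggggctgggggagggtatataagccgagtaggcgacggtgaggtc
HERPUD1: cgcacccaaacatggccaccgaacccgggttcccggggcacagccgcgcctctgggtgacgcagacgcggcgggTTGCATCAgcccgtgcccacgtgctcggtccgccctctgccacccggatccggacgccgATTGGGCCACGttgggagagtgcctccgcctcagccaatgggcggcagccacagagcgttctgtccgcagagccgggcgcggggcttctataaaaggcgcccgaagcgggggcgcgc

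The ASNS match began 68 bases before the start, the CHAC1 match 209 bases before it on the opposite strand, and the HSPA5 match 66 bases before it. HERPUD1 held both a CARE on the opposite strand at 176 bases and an ERSE-II at 117 bases before its start. ATF3 had a further CARE match at 191 bases, in 1 of its windows. In all, 5 of the 10 members had a match in at least 1 of the 16 windows of 300 bases listed for them (250 before to 50 after a start). Over all 35116 such windows in the table, 3.62% held a CARE, 0.0769% an ERSE and 0.0541% an ERSE-II. Those shares are per window and motif, while the count of members is per gene over any window and motif, so they are unlike measures. A match describes the letters only, and binding was not measured.

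The members were detected at very different depths. Over the 82 wells HSPA5 averaged 169 CPM (range 116 to 399), ASNS 149 CPM (63.0 to 413), ATF4 65.1 CPM (34.7 to 117), DDIT3 56.2 CPM (17.0 to 139), DDIT4 25.4 CPM (10.7 to 43.1) and HERPUD1 20.2 CPM (8.66 to 41.8). The other 4 were sparse: TRIB3 averaged 7.32 CPM, with a median of 8.5 counts per well, and ATF3, SESN2 and CHAC1 averaged 2.95, 2.68 and 2.67 CPM, each with a median of 3 counts per well. CHAC1 was at 0 in 10 wells, ATF3 in 4, SESN2 in 3 and TRIB3 in 2. All 10 passed the filter on low counts, a mean above 1 in the wells compared, in every comparison. On the hg19 assembly, the build of the counts, the genes lie at chr22:39915700-39918688 (ATF4), chr1:212738676-212794119 (ATF3), chr12:57910371-57915520 (DDIT3), chr20:343479-378203 (TRIB3), chr7:97480989-97501854 (ASNS), chr15:41245160-41248710 (CHAC1), chr1:28586029-28609002 (SESN2), chr10:74033678-74035794 (DDIT4), chr9:127997132-128003661 (HSPA5) and chr16:56966054-56978776 (HERPUD1), all annotated as protein-coding.

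Differences are log2 fold changes from limma-voom with TMM factors, with a standard error (SE) and a two-sided p-value adjusted by Benjamini-Hochberg over all genes tested, and a gene was called at an adjusted p-value under 0.05. A level is in CPM, as mean ± SD. The p-values measure the spread between wells. The paper calls its replicates of a condition biological, while the labels do not describe the wells as separate cultures. The smallest p-values rest on a variance shared between genes more than on 3 wells. In these bulk wells, fewer cells that carry an RNA and less of it per cell cannot be told apart.

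**Figure D1:**
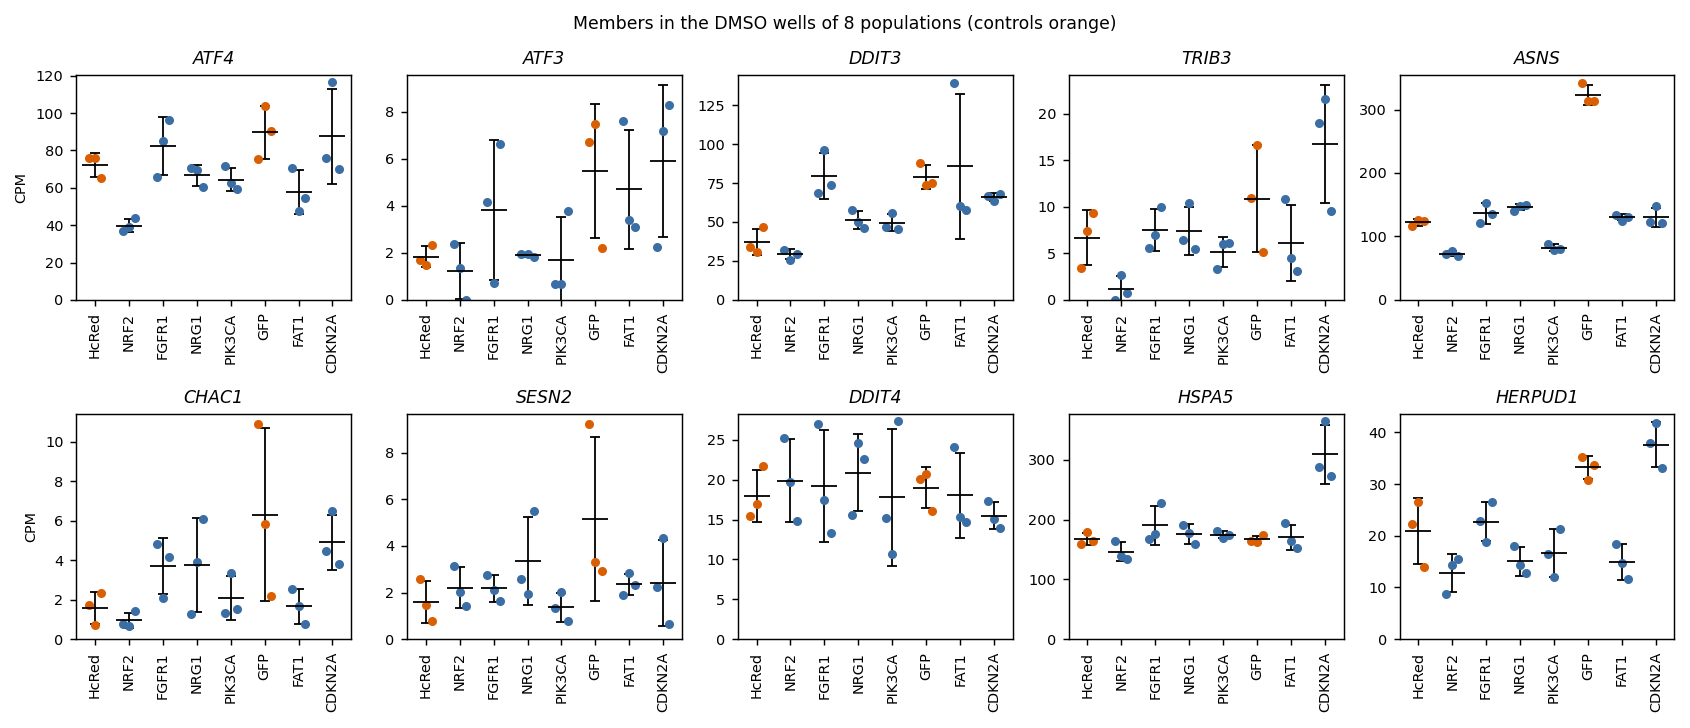
Level in CPM of each of the 10 members (panels) in the DMSO wells of the 8 populations (x axis), with points for the 3 wells of each population, bars for mean ± SD and the HcRed and GFP controls in orange. ASNS stood highest in the GFP control at 313 to 342 CPM and HSPA5 in the CDKN2A population at 273 to 365 CPM, with no overlap with any other population under DMSO.

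The 2 control populations differed from each other more in these genes than most populations did from their control. ASNS, the enzyme that makes asparagine and a classic ATF4 target, was at 342, 314 and 313 CPM in the GFP wells under DMSO and at 116, 126 and 125 CPM in the HcRed wells. The groups lay far apart, at 323 ± 16.2 against 123 ± 5.39 CPM (n = 3 each), a log2 difference of 1.44 (SE 0.09, adjusted p = 1.46e-17). DDIT3, the pro-apoptotic factor CHOP, was at 88.1, 73.9 and 74.8 CPM in GFP and at 34.2, 30.9 and 46.5 CPM in HcRed, again without overlap, a log2 difference of 1.14 (SE 0.16, adjusted p = 4.24e-07). HERPUD1, a membrane protein that serves the degradation of misfolded ER proteins, was at 35.2, 30.7 and 33.7 CPM in GFP. It was at 22.2, 26.5 and 13.9 CPM in HcRed, below every GFP well, and the log2 difference was 0.75 (SE 0.22, adjusted p = 0.0154), a call that was lost without the third HcRed well (adjusted p = 0.176).

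These 3 were the members called out of 10, where 10.8% of all 11134 genes tested were called. All 10 members had a positive difference, and their median was 0.95 against -0.019 over all genes. The sparse members had large differences that did not pass: CHAC1, a glutathione-degrading enzyme, at 1.63 (SE 0.66, adjusted p = 0.111), SESN2, a stress-induced inhibitor of mTORC1, at 1.44 (SE 0.64, adjusted p = 0.158), and ATF3 at 1.26 (SE 0.60, adjusted p = 0.198). ATF4 itself was at 75.5, 104 and 90.2 CPM in GFP and at 76.2, 75.7 and 65.1 CPM in HcRed. Those wells overlapped, and the log2 difference was 0.36 (SE 0.13, adjusted p = 0.0698). HSPA5, the main ER chaperone, was at 167 ± 5.88 CPM in GFP and 168 ± 10.4 CPM in HcRed, a log2 difference of 0.04 (SE 0.09, adjusted p = 0.84). Without the third GFP well 5 members were called, with CHAC1 at 2.25 (adjusted p = 0.0171) and ATF3 at 1.83 (adjusted p = 0.0387) added. With the wells of every chemical in which both controls had 3 wells, the count rose to 6 members, CHAC1 at 2.01 (adjusted p = 9.36e-05), SESN2 at 1.32 (adjusted p = 0.00738) and ATF4 at 0.41 (adjusted p = 0.000192) among them.

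The ASNS difference of the GFP population was present under every chemical. The 12 GFP wells ranged from 287 to 413 CPM, at 322, 331 and 324 under CSC, 387, 379 and 313 under BaP, and 369, 413 and 287 under NNK. The other 70 wells ranged from 63.0 to 186 CPM, so no well of another population reached the lowest GFP well. HERPUD1 in the same 12 GFP wells ranged from 22.5 to 35.2 CPM, within the range of the other wells.

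**Figure D2:**
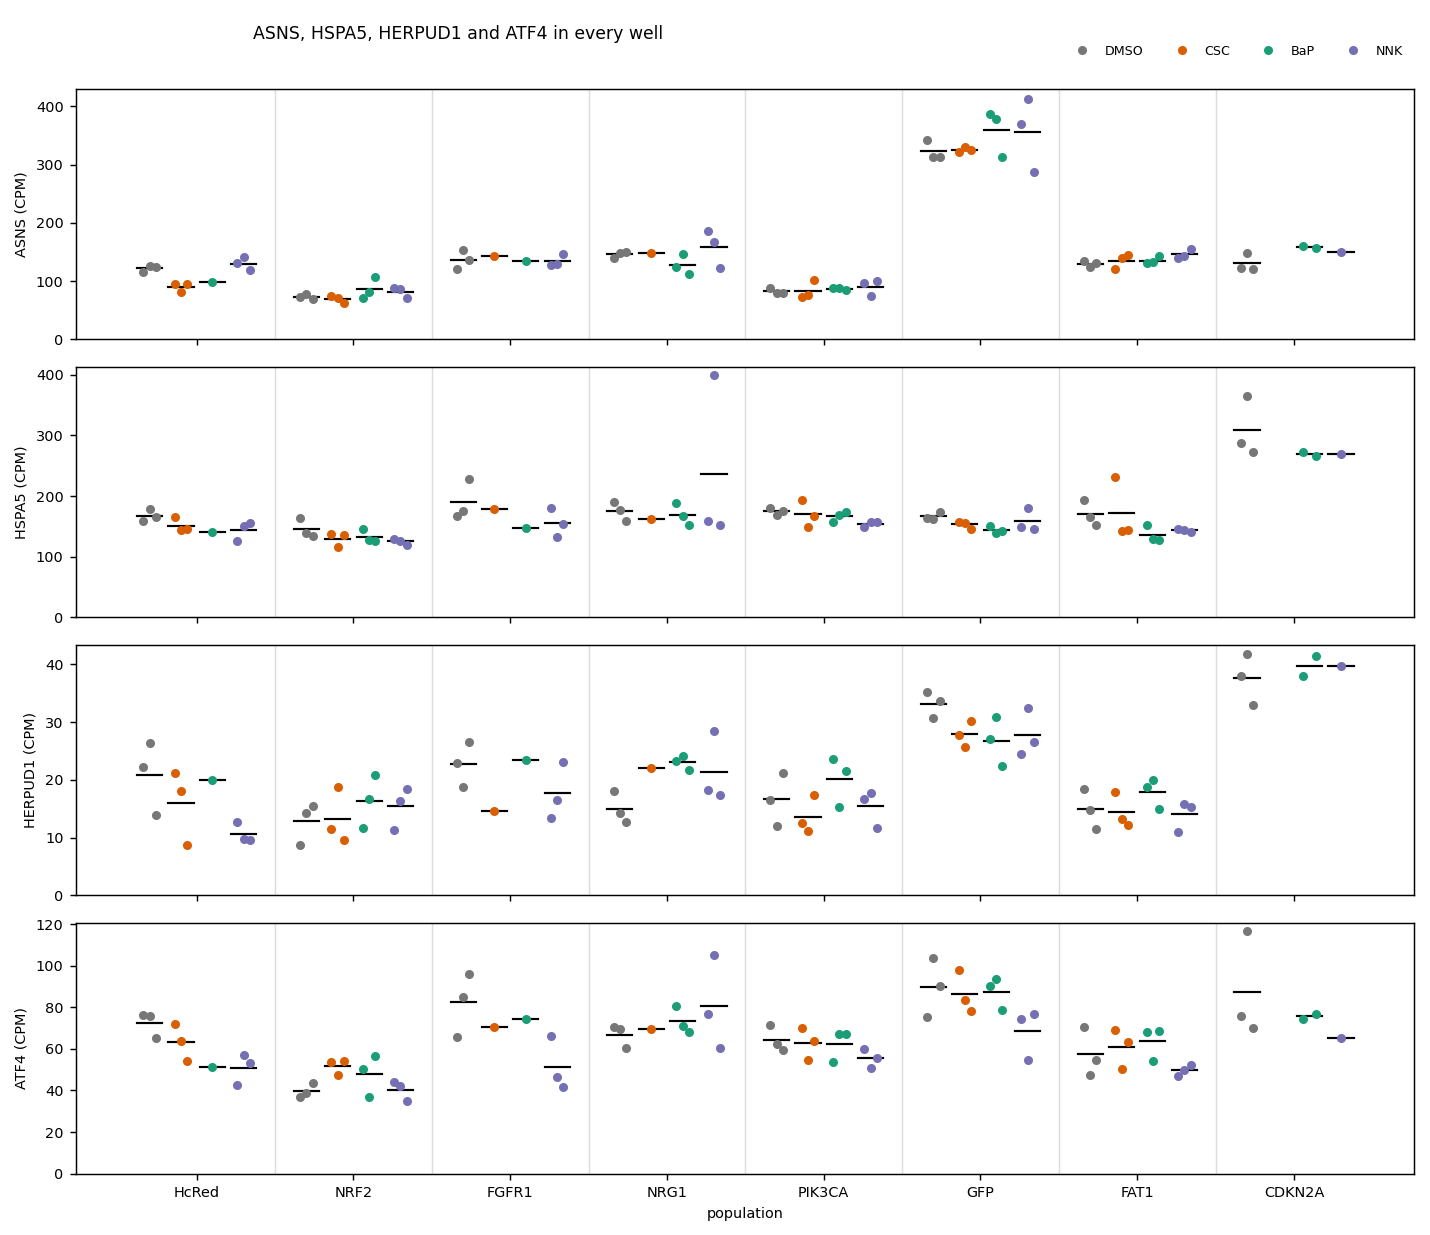
CPM of ASNS, HSPA5, HERPUD1 and ATF4 in all 82 wells, by population (x axis), with colours for the 4 chemicals and a black line for each group mean. The 12 GFP wells held ASNS at 287 to 413 CPM and the other 70 wells at 63.0 to 186 CPM, and the 6 CDKN2A wells held HSPA5 at 266 to 365 CPM, a range reached by a single well of the other 76, at 399 CPM.

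Overexpression of NRF2, the transcription factor of the antioxidant response, went with lower ATF4 and lower levels of 2 of its targets. ATF4 was at 36.99, 38.8 and 43.6 CPM in the NRF2 wells under DMSO and at 76.2, 75.7 and 65.1 CPM in HcRed. The NRF2 wells lay below every well of the other 7 populations under DMSO, and the log2 difference from HcRed was -0.76 (SE 0.15, adjusted p = 0.000128). ASNS was at 72.4, 77.6 and 69.0 CPM, also below all HcRed wells, with a log2 difference of -0.65 (SE 0.11, adjusted p = 1.84e-05). TRIB3, a pseudokinase that feeds back on ATF4 and DDIT3, was at 0, 2.72 and 0.704 CPM against 3.42, 7.35 and 9.29 CPM, that is 0 to 4 counts per well against 4 to 12. Its log2 difference of -2.47 (SE 0.75, adjusted p = 0.0344) rested on those few counts, and leaving out any 1 of 5 of the 6 wells ended the call (adjusted p up to 0.204).

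The 3 called members, all lower, stood beside 4.92% of 11217 genes called in that comparison, and the members' median was -0.50 against -0.009 over all genes. HERPUD1 averaged 12.8 ± 3.65 CPM in NRF2 and 20.9 ± 6.38 CPM in HcRed without passing (log2 difference -0.58, SE 0.27, adjusted p = 0.264). DDIT3 was at 29.2 ± 3.22 against 37.2 ± 8.20 CPM (log2 difference -0.24, SE 0.19, adjusted p = 0.609). Under the other chemicals ATF4 stayed low in the NRF2 population, at 53.9, 47.4 and 54.2 CPM under CSC, 50.3, 36.6 and 56.4 under BaP, and 43.9, 42.3 and 34.7 under NNK. The 12 NRF2 wells spanned 34.7 to 56.4 CPM, where the median of the other 70 wells was 68.4 CPM and the lowest 41.9 CPM.

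FGFR1, a receptor tyrosine kinase, went with higher DDIT3, the 1 member called. DDIT3 was at 68.6, 96.4 and 73.7 CPM in the FGFR1 wells and at 34.2, 30.9 and 46.5 CPM in HcRed, with no overlap and a log2 difference of 1.09 (SE 0.18, adjusted p = 4.17e-07). That was 1 of 10 members, where 0.905% of 11379 genes were called. All 10 had a positive difference, with a median of 0.165 against 0.009 over all genes, and CHAC1 was at 1.08 (SE 0.66, adjusted p = 0.668). ASNS at 136 ± 16.2 CPM and ATF4 at 82.4 ± 15.3 CPM did not pass (adjusted p = 0.837 and 0.825).

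NRG1, a ligand of the ERBB receptors, had DDIT3 at 57.5, 49.9 and 46.3 CPM, where 1 well lay just below the highest HcRed well. Its log2 difference was 0.55 (SE 0.16, adjusted p = 0.0386). ASNS was at 140, 148 and 150 CPM, above all HcRed wells, with a log2 difference of 0.33 (SE 0.10, adjusted p = 0.0395). These 2 of 10 members, beside 3.1% of 11328 genes called, were close to the threshold. Leaving out any well left 0 or 1 member called. DESeq2 in place of limma-voom called 0, but it gave DDIT3 no adjusted p-value.

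PIK3CA, the catalytic subunit of PI3-kinase, had lower ASNS, at 88.1, 79.2 and 79.8 CPM against 116, 126 and 125 CPM in HcRed. The groups did not overlap, and the log2 difference was -0.51 (SE 0.11, adjusted p = 0.00146). It was the 1 member called of 10, beside 5.37% of 11231 genes. DDIT3 at 47.0, 55.7 and 45.6 CPM overlapped HcRed and missed the threshold (log2 difference 0.50, SE 0.17, adjusted p = 0.0698), while with all chemicals it passed at 0.56 (adjusted p = 6.01e-05). The comparisons with HcRed all used the same 3 HcRed wells, so their values are set side by side and are not independent.

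The FAT1 and CDKN2A knockouts were compared with the GFP population, whose ASNS was high as described above, and they share its 3 wells with each other and with the comparison of the controls. FAT1 encodes a protocadherin. In the FAT1 wells ASNS was at 134, 125 and 131 CPM, below every GFP well, with a log2 difference of -1.25 (SE 0.09, adjusted p = 1.6e-21). HERPUD1 was at 18.4, 14.7 and 11.6 CPM against 35.2, 30.7 and 33.7 CPM, also without overlap, a log2 difference of -1.08 (SE 0.22, adjusted p = 0.000112). ATF4 was at 70.5, 47.6 and 54.8 CPM, below the GFP wells, a log2 difference of -0.59 (SE 0.14, adjusted p = 0.00092). These 3 of 10 members, all lower, stood beside 14.1% of 11142 genes called, with a members' median of -0.65 against -0.01 over all genes.

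CHAC1 was at 2.54, 1.70 and 0.771 CPM in FAT1 and 10.9, 5.82 and 2.20 CPM in GFP, and the wells overlapped (log2 difference -1.44, SE 0.59, adjusted p = 0.0922). Over all chemicals it passed at -1.25 (adjusted p = 0.000273), and without the third GFP well 5 members were called, with CHAC1 at -2.03 (adjusted p = 0.01) and TRIB3 at -1.16 (adjusted p = 0.0289) added. DDIT3 in FAT1 was at 139, 60.0 and 57.9 CPM, and the first well was the highest of the 82. In that well 9 of the 10 members, all but SESN2, lay above both replicates. Of the 6 members at 10 CPM or more all 6 did, where 41.8% of 4910 genes at that level did. What set that well apart was not tested.

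CDKN2A encodes the cell-cycle inhibitor p16. Its knockout wells had ASNS at 123, 148 and 121 CPM, a log2 difference from GFP of -1.42 (SE 0.12, adjusted p = 6.71e-17), and HSPA5 at 288, 365 and 273 CPM against 164, 163 and 174 CPM. For HSPA5 the groups lay far apart, with a log2 difference of 0.76 (SE 0.12, adjusted p = 6.66e-07). These 2 of 10 members, in opposite directions, stood beside 17.9% of 11575 genes called, a share near theirs, and the members' median was -0.20 against 0.028. HERPUD1 was at 37.9, 41.8 and 33.1 CPM, close to GFP (log2 difference 0.06, SE 0.20, adjusted p = 0.888). TRIB3 was at 19.0, 21.6 and 9.54 CPM, with a mean of 16.7 ± 6.34 CPM above those of the other 7 populations, and overlapped the GFP wells (log2 difference 0.59, SE 0.32, adjusted p = 0.212).

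Leaving aside wells with 2-digit replicate numbers, high HSPA5 was found in all 6 CDKN2A wells, with 273 and 266 CPM under BaP and 270 CPM under NNK. The 6 wells lay at 266 to 365 CPM. Of the other 76 wells the second highest was at 231 CPM, and the highest, at 399 CPM, was the NRG1 well that stood apart. The CDKN2A wells with 2-digit numbers held HSPA5 at 274 to 293 CPM under CSC. Under NNK such wells were lower, at 228 and 258 CPM, and the lower of these lay below 231 CPM. HERPUD1 in the 6 CDKN2A wells, at 33.1 to 41.8 CPM, overlapped the GFP wells.

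The order of the 8 populations under DMSO differed between members. For ATF4 the order ran from GFP (89.8 CPM) through CDKN2A, FGFR1, HcRed, NRG1, PIK3CA and FAT1 (57.6 CPM), each overlapping the next, to NRF2 (39.8 CPM), which lay apart. For ASNS, GFP lay apart at the top, NRG1, FGFR1, CDKN2A, FAT1 and HcRed overlapped in turn from 146 to 123 CPM, and PIK3CA (82.4 CPM) and NRF2 (73.0 CPM) each lay apart below. For DDIT3, FAT1, FGFR1 and GFP overlapped at 85.6, 79.6 and 78.9 CPM, CDKN2A (65.9 CPM) lay below the FGFR1 and GFP wells but within the FAT1 range, and NRG1, PIK3CA, HcRed and NRF2 overlapped in turn from 51.3 to 29.2 CPM. DDIT4, an mTORC1 inhibitor induced by stress and hypoxia, was alike in all, from 20.9 CPM in NRG1 to 15.5 CPM in CDKN2A, with every neighbour overlapping, and was not called in any population comparison under DMSO.

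DDIT4 was higher than in DMSO under all 3 chemicals, and DDIT3, described next, was called under 2 of them. Across the 5 populations with 3 wells under both CSC and DMSO, its lowest, median and highest levels were 12.6, 27.8 and 43.1 CPM in the 15 CSC wells and 10.7, 16.9 and 27.4 CPM in the 15 DMSO wells. The ranges overlapped, and with population as a covariate DDIT4 rose by 0.67 on the log2 scale (SE 0.12, adjusted p = 1.76e-05). Under BaP the levels were 19.97, 24.7 and 39.8 CPM against 10.7, 19.7 and 27.4 CPM, a rise of 0.58 (SE 0.11, adjusted p = 3.98e-05). Under NNK they were 15.0, 30.4 and 39.8 CPM against 10.7, 17.5 and 27.4 CPM over 21 wells each, a rise of 0.69 (SE 0.10, adjusted p = 3.03e-07), and of 0.72 without the NRG1 well that stood apart (adjusted p = 1.23e-08). These 3 comparisons share DMSO wells.

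The group mean lay above that of DMSO in 5 of 5 populations under CSC, 5 of 5 under BaP and 7 of 7 under NNK, with no overlap of wells in 3, 2 and 4 of them. In the FAT1 population DDIT4 went from 24.1, 15.3 and 14.7 CPM under DMSO to 43.1, 38.9 and 32.7 under CSC, 32.97, 31.7 and 35.7 under BaP, and 36.7, 39.6 and 33.5 under NNK, or 2.12, 1.86 and 2.03 times the DMSO mean. In HcRed it went from 15.4, 16.9 and 21.7 CPM to 25.3, 32.3 and 25.4 under CSC and 38.2, 30.4 and 32.9 under NNK, and in both cases all exposed wells lay above all DMSO wells. In GFP the means were 22.8, 21.8 and 19.5 CPM against 19.0 CPM under DMSO, and the wells overlapped, from 20.1, 20.8 and 16.1 CPM to 27.8, 23.8 and 16.8 under CSC and 15.5, 27.9 and 15.0 under NNK. This spread did not pass the test of the response by population (adjusted p = 0.909 for CSC, 0.85 for BaP and 0.798 for NNK). Without the NRG1 well that stood apart, the adjusted p for NNK was 0.949. That test spans all populations compared, and the responses of FAT1 and GFP were not tested against each other. Every exposed FAT1 well lay above every GFP well under the same chemical. By limma-voom, FAT1 against GFP was -0.03 under DMSO and 0.67 over all chemicals (adjusted p = 5.25e-06).

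**Figure D3:**
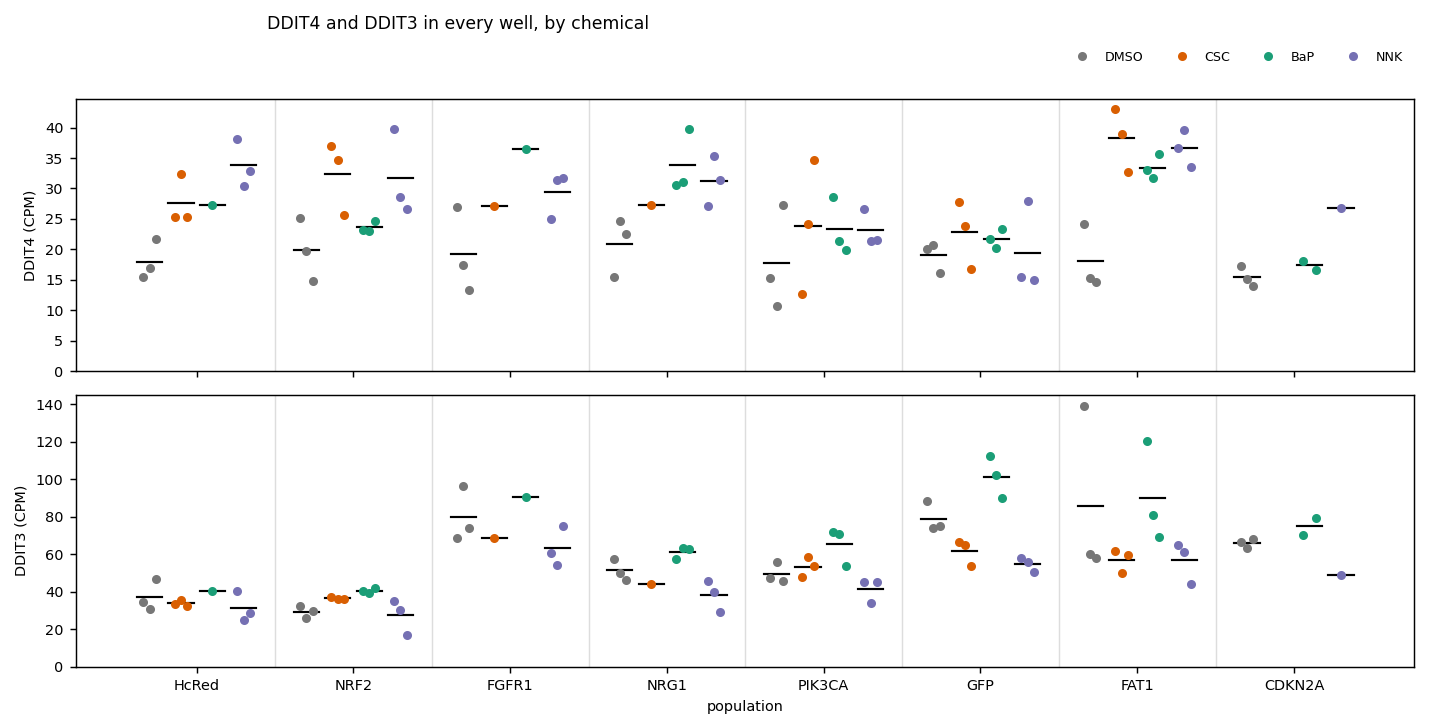
CPM of DDIT4 and DDIT3 in each 1-digit well by population (x axis) and chemical (colours), with black lines for group means. Mean DDIT4 lay above DMSO in every population compared under each chemical, and mean DDIT3 lay higher under BaP in 5 of 5 populations and lower under NNK in 7 of 7.

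DDIT3 went up under one carcinogen and down under another. Under BaP its lowest, median and highest levels were 39.0, 69.3 and 120 CPM against 25.9, 55.7 and 139 CPM in the DMSO wells of the same 5 populations, a log2 difference of 0.34 (SE 0.08, adjusted p = 0.00317). Under NNK they were 17.0, 44.9 and 75.1 CPM against 25.9, 55.7 and 139 CPM, a log2 difference of -0.33 (SE 0.09, adjusted p = 0.00661), and of -0.31 without the NRG1 well that stood apart (adjusted p = 0.00326). The ranges overlapped in both, but the direction was shared: higher under BaP in 5 of 5 populations and lower under NNK in 7 of 7. Between the 2 chemicals directly, which were used at different doses, in the same 5 populations BaP wells were at 39.0, 69.3 and 120 CPM and NNK wells at 17.0, 44.9 and 65.0 CPM, a log2 difference of 0.70 (SE 0.09, adjusted p = 4.32e-08), and of 0.66 without that NRG1 well (adjusted p = 1.37e-08). DDIT3 was also lower under CSC than under BaP, at 52.1 ± 11.04 against 74.3 ± 27.8 CPM (n = 12 each), a log2 difference of -0.53 (SE 0.08, adjusted p = 2.03e-06). In GFP, for example, it was at 112, 102 and 89.9 CPM under BaP, 88.1, 73.9 and 74.8 under DMSO, 66.4, 65.1 and 53.7 under CSC, and 57.9, 55.8 and 50.3 under NNK, and in each of these 4 groups every well lay apart from the wells of the others, except that CSC and NNK overlapped.

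By count, CSC against DMSO called 1 of 10 members (5.82% of 11371 genes), BaP against DMSO 2 (9.11% of 11306) and NNK against DMSO 2 (7.22% of 11349). CSC against BaP called 1 (4.58% of 11277), CSC against NNK 2 (12.2% of 11171) and BaP against NNK 1 (0.996% of 11245). Such counts of 1 or 2 members do not set the group apart from all genes. The members' medians were -0.023, 0.20 and -0.076 for CSC, BaP and NNK against DMSO, where all genes had -0.001, 0.003 and -0.009. The response differed between populations for 0.106%, 0.115% and 0.0176% of genes under CSC, BaP and NNK, and for 0 of the 10 members by limma-voom. At an unadjusted p under 0.05, 2 members differed under CSC (DDIT3, with an adjusted p of 0.788, and ASNS, with 0.834), 1 under BaP (ASNS, with 0.724) and 1 under NNK (TRIB3, with 0.767), while 668, 762 and 706 of all genes did. Without the NRG1 well that stood apart 7 genes in place of 2 passed for NNK, and again 0 members.

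The remaining members showed small differences between chemicals. ATF4 was 0.19 higher on the log2 scale under CSC than under NNK (65.1 ± 13.8 against 53.0 ± 11.3 CPM, n = 15 each, SE 0.07, adjusted p = 0.0485), a call kept in 13 of 43 other settings. ASNS was lower under CSC than under NNK by a log2 difference of -0.28 (141 ± 98.7 against 161 ± 107 CPM, SE 0.06, adjusted p = 0.000144), where the SD is that between populations. HSPA5 had a log2 difference of -0.12 under BaP (SE 0.04, adjusted p = 0.0767) and of -0.08 under NNK (SE 0.05, adjusted p = 0.444). Its wells lay below all DMSO wells in 4 of 7 populations under NNK, also without the NRG1 well that stood apart. Without that well, NNK against DMSO called 5 members in place of 2, with HSPA5 at -0.12 (adjusted p = 0.0155), ATF4 at -0.20 (adjusted p = 0.0201) and ASNS at 0.18 (adjusted p = 0.00167) added to DDIT3 and DDIT4. In that fit 2230 of all genes were called in place of 819. In BaP against NNK the same omission left 1 member called, with 567 of all genes in place of 112.

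**Figure D4:**
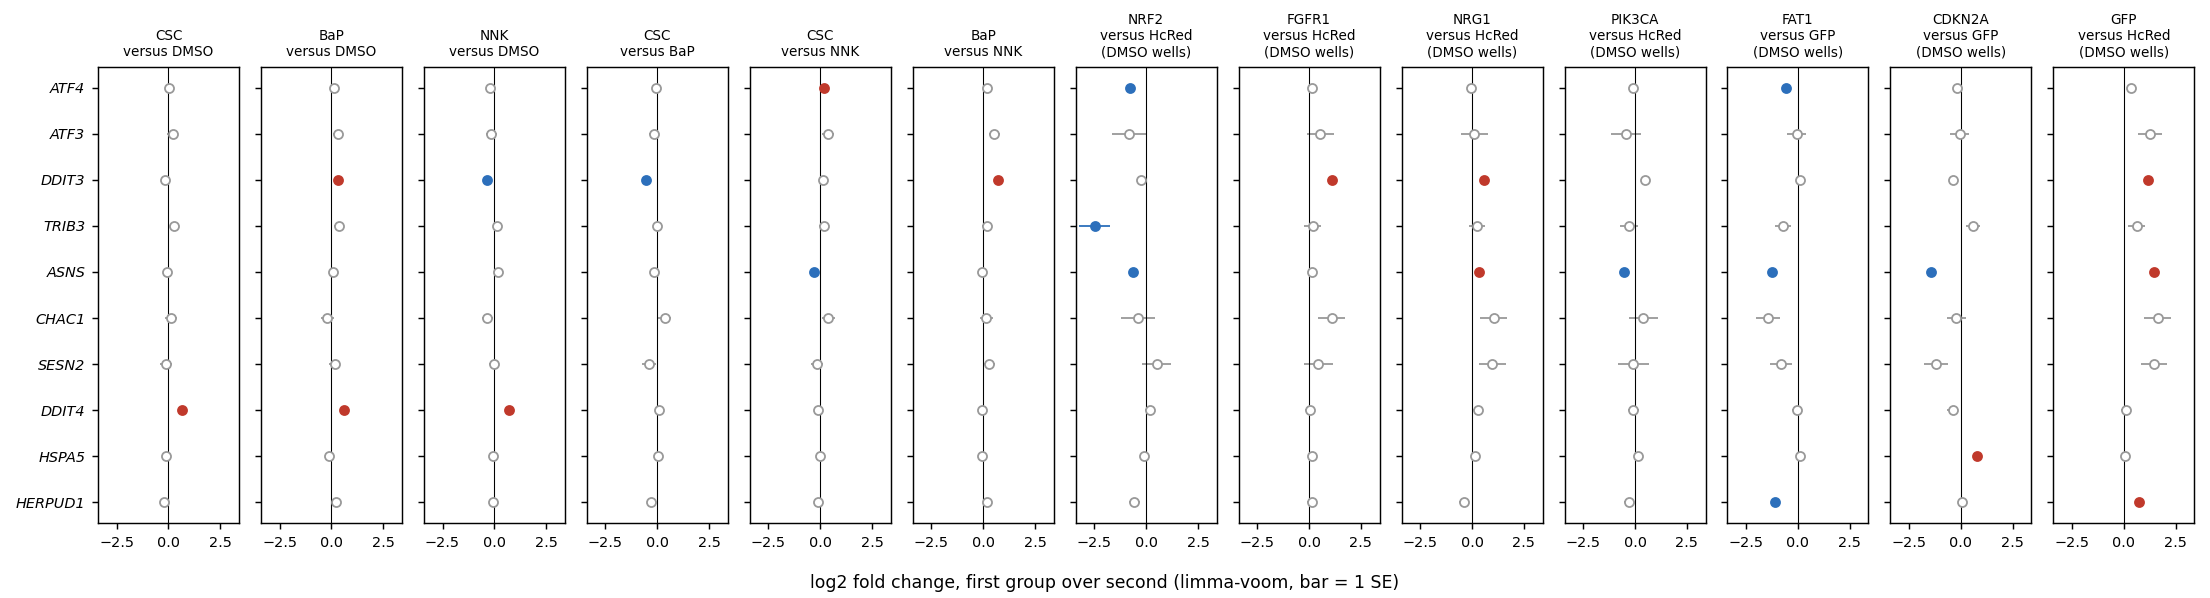
Log2 fold change of each of the 10 members in the 13 comparisons between 2 groups, with bars of 1 SE and filled points for an adjusted p under 0.05. DDIT4 was called only against DMSO and never between populations, and ASNS was called in 6 of the 7 population comparisons.

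The genes around the members were read from 8 lists of the same pathway. In GFP against HcRed 10.8% of all genes were called. There, 5 of 13 genes of amino acid synthesis and one-carbon supply were higher and 0 lower (median 0.62). PSAT1, a serine synthesis enzyme, was at 327 ± 10.8 against 102 ± 6.41 CPM, a log2 difference of 1.73, with PCK2 at 1.27 and PHGDH at 1.10. Of 18 aminoacyl-tRNA synthetases, which charge transfer RNAs, 9 were higher and 1 lower (median 0.54), with YARS at 0.85, IARS at 0.84 and RARS at -0.28. NUPR1, a stress-induced transcription cofactor, was at 51.3 ± 4.48 against 16.2 ± 1.40 CPM, a log2 difference of 1.69. The amino acid transporters split, 2 higher and 1 lower of 9, with SLC7A11 at 0.78 and SLC7A5 at -0.70. Among 20 ER chaperones and folding enzymes 1 was higher and 1 lower, and among 14 other stress-induced ATF4 targets 1 and 0. Both counts were near the share of all genes. Among 21 genes of ER-associated degradation and translocation 3 were higher and 2 lower, and among 9 ER stress sensors 0 and 0.

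In both knockouts synthesis genes and synthetases were mostly lower than in GFP among those called, while the transporters were not alike. In FAT1, where 14.1% of all genes were called, 0 of 12 synthesis genes were higher and 7 lower (median -0.47). PSAT1 was at 91.2 ± 12.2 CPM, a log2 difference of -1.78, and 1 of 18 synthetases was higher and 5 lower. Of 9 transporters 0 were higher and 1 lower (median -0.61), a count near the share of all genes. In CDKN2A, where 17.9% of all genes were called, 1 of 13 synthesis genes was higher and 5 lower (median -0.59). PSAT1 was at 109 ± 10.1 CPM, a log2 difference of -1.70, and CTH, an enzyme of cysteine supply, was higher at 1.23. Of 18 synthetases 0 were higher and 9 lower (median -0.40), with IARS at -1.27, and of 9 transporters 1 was higher and 2 lower (median 0.13). These comparisons used the same GFP wells, and the levels of PSAT1 in HcRed (102 CPM), FAT1 and CDKN2A stood side by side well under that in GFP.

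In CDKN2A, where 17.9% of all genes were called, some ER genes were higher beside HSPA5 and 2 were lower. Of 21 ER chaperones and folding enzymes 5 were higher than in GFP and 0 lower (median 0.43), a share near that of all genes in either direction. Of 21 genes of degradation and translocation 7 were higher and 2 lower (median 0.26). Over all 11575 genes 996 were higher and 1074 lower (median 0.028). ERO1LB, an ER oxidase, averaged 3.17 ± 2.90 CPM and was at 0 in all 3 GFP wells. PDIA6, a disulfide isomerase, was at 68.8 ± 10.1 against 24.5 ± 2.66 CPM, a log2 difference of 1.36, and DNAJB11, an HSPA5 co-chaperone, at 106 ± 9.41 against 42.9 ± 3.99 CPM, a log2 difference of 1.19. Of 9 sensors 2 were higher, ATF6 at 0.54 and MBTPS2, a protease that activates ATF6, at 1.36. OS9 and VCP were lower, at -0.88 and -0.61. In FAT1, where 14.1% of all genes were called, 1 chaperone of 20 was higher and 2 lower, a share near that of all genes. The 2 knockouts were not tested against each other. List counts were not refitted without the second CDKN2A well, which differed most from its replicates among the DMSO wells.

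**Figure D5:**
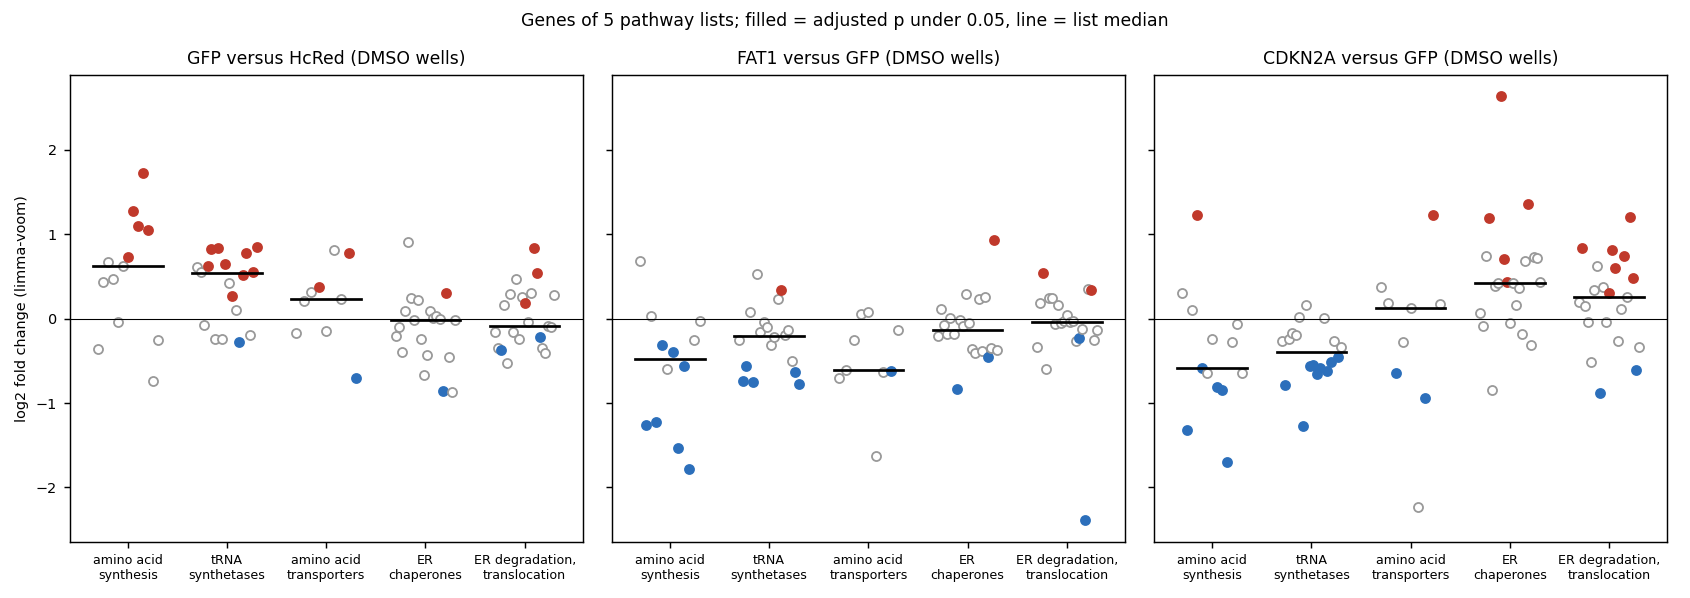
Log2 fold change of every tested gene of the pathway lists in GFP against HcRed and in FAT1 and CDKN2A against GFP, under DMSO, with filled points for an adjusted p under 0.05 and a line at each list's median. Synthesis genes and synthetases lay above 0 in GFP against HcRed (medians 0.62 and 0.54) and below 0 in CDKN2A against GFP (medians -0.59 and -0.40).

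In the overexpression family 0.905% to 5.37% of all genes were called against HcRed, less than in the comparisons with GFP (10.8% to 17.9%), and list counts are read beside those shares. NRF2 had 0 of 13 synthesis genes higher and 1 lower, PSAT1 at -0.54, while the synthetases LARS and RARS were higher at 0.61 and 0.43 and TARS lower at -0.35, and no ER chaperone was called in either direction. NRG1 had PSAT1 and MTHFD2 higher at 0.59 and 0.50, 4 of 18 synthetases higher and 0 lower, and SLC7A5 lower at -0.93. PIK3CA had 5 of 18 synthetases higher and 0 lower, with NUPR1 at -1.51 and PDIA6 at -0.74. FGFR1 had PSAT1 higher at 0.50 and SLC7A11, the cystine transporter, at 0.81, of which PSAT1 was no longer called with median-ratio size factors.

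Under the chemicals 5.82%, 9.11% and 7.22% of all genes were called for CSC, BaP and NNK, and list counts are read beside those shares. The transporters were the list with most calls for CSC, 4 higher and 0 lower of 9 (median 0.22). SLC7A11 was at 38.3 ± 11.2 against 26.1 ± 7.19 CPM, a log2 difference of 0.56, with SLC3A2 at 0.40, SLC7A5 at 0.28 and SLC38A1 at 0.22. PPP1R15A, the stress-induced subunit that removes the phosphate from eIF2alpha, was higher under CSC (0.75) and BaP (0.70). GDF15, a stress-induced cytokine, was higher under BaP (1.14) and NNK (1.01) at levels of only 2.18 and 2.33 CPM. Its list, of 15 other stress-induced ATF4 targets, went both ways, with 3 higher and 2 lower under BaP. Under NNK 1 was higher and 1 lower, the latter PMAIP1 at -0.38. SEL1L, a scaffold of ER-associated degradation, was lower under BaP, at 16.2 ± 4.08 against 28.8 ± 6.25 CPM (log2 difference -0.78), and under NNK (-0.51), as was EDEM3, a mannosidase of the same pathway (-0.67 and -0.48). DNAJB9, a co-chaperone of HSPA5, was lower under NNK at -0.99. Among the 21 genes of degradation and translocation 4 were higher and 3 lower under BaP. Under NNK 0 were higher and 2 lower, a share near that of all genes. Without the NRG1 well that stood apart all 10 list genes called under NNK kept their call and direction. SEL1L was at -0.56, EDEM3 at -0.62, DNAJB9 at -1.05 and GDF15 at 1.02. In that fit 36 list genes were called, and of all genes 2230 were called in place of 819. That omission moved 12 of 16 counts of called list genes by over 1.5 times, over 8 lists in NNK against DMSO and in BaP against NNK. Under NNK the genes of degradation and translocation became 7 higher and 4 lower, and those of synthesis went from 0 and 0 to 3 and 0.

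Levels were also compared across the 25 groups with 3 wells by Pearson's r of group mean log2(CPM + 1), as a description. These groups share populations, chemicals and plate, and r carries no test. ASNS stood far higher in the GFP groups than in any other, so its r leans on that 1 population. Among members the closest pairs were ATF4 and HERPUD1 (r = 0.80), ATF3 and DDIT3 (0.77), CHAC1 and HERPUD1 (0.77), ASNS and CHAC1 (0.76) and ATF4 and TRIB3 (0.74). Among 5010 other genes at 10 CPM or more, the pattern of ATF4 was nearest to those of GARS (0.87), SLC1A5 (0.85) and KDELR2 (0.85), that of HSPA5 to DCBLD2 (0.86), USP14 (0.86) and SERP1 (0.85), and that of ASNS to MYL12B (0.95), PCNA (0.94) and TPMT (0.92). DDIT3 was nearest to IFRD1 (0.80) and SNX7 (0.79), DDIT4 to PSMB6 (0.76) and LAMTOR2 (0.73), and HERPUD1 to YBX1 (0.85), LOC100129195 (0.825) and PGM5P2 (0.82). Without the NRG1 well that stood apart the 5 pairs of members had an r of 0.73 to 0.80. The nearest 3 genes were then as given for ASNS, while SLC1A5, YARS and GARS led for ATF4, CD164, UBE2A and DCBLD2 for HSPA5, and LOC100129195, YBX1 and PLSCR1 for HERPUD1. The first 2 remained in place for DDIT4, and for DDIT3 IFRD1 stayed first and AARS came second.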

How the data were processed

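RNA of AALE cells was profiled by 3′DGE in 95 wells. Per the study's methods and the deposited files, the authors' values are raw UMI counts per gene: reads were aligned to RefSeq hg19 transcripts with BWA aln 0.7.10, and reads with the same UMI and well barcode were counted once per gene. Groups and replicate numbers came from the sample titles. Genes with a mean count above 1 in the wells fitted were tested in R 4.3.3 with limma 3.58.1 (voom weights, TMM factors from edgeR 4.0.16), with population as a covariate for chemicals and an interaction F test for the response by population. P-values were two-sided and adjusted by Benjamini-Hochberg, with a threshold of 0.05. The prior degrees of freedom were 38.2 to 96.3, and unbounded for FGFR1. CPM used the well's total count. The scripts were tested on simulated data. Alternatives were no filter, median-ratio factors, edgeR and DESeq2 1.42.0 tests, a replicate block, other sets of wells and leaving out wells or populations. The members and lists were chosen with earlier results of these data known. Named list genes were, by rule, up to 4 higher and 4 lower called genes of each list with the largest changes, of which the text gives a selection, and like genes the 3 with the highest r. Same-numbered wells were not treated as pairs in the main fits. Over 114 pairs of them, correlations of deviations ran from -0.357 to 0.294, with 23 above 0.1. Wells with different numbers were not correlated for reference, so pairing was not excluded. Gene positions came from a GENCODE annotation of hg19, and upstream sequences and motifs from RefSeq on GRCh38.p14, with no conversion between builds. No genome sequence was read by coordinates.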

Additional observations from a re-analysis of the deposited data

Results flagged for a closer look

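DDIT4 lay above every DMSO well in 4 of 6 groups of wells with 2-digit replicate numbers, which no comparison above used. In the 3 CDKN2A wells under CSC it averaged 26.1 CPM (21.8 to 33.5), above every CDKN2A DMSO well (13.99 to 17.3), and in the 2 NRG1 wells under CSC 31.6 CPM (29.8 to 33.3), above 15.5 to 24.6 CPM. In the 2 FGFR1 wells under BaP it averaged 34.6 CPM (28.6 to 40.5), above 13.3 to 27.0 CPM, and in the 2 CDKN2A wells under NNK 23.3 CPM (21.7 to 24.9), above 13.99 to 17.3 CPM. In the other 2 groups the wells overlapped DMSO: the FGFR1 wells under CSC were at 22.7 and 24.0 CPM against 13.3 to 27.0 CPM, and the HcRed wells under BaP at 18.9 and 23.2 CPM against 15.4 to 21.7 CPM. DDIT3, the other member called against DMSO, overlapped DMSO in the 2-digit wells under the chemicals of its calls. It was at 39.3 to 48.1 CPM in HcRed under BaP, against 30.9 to 46.5 CPM. In FGFR1 under BaP it was at 93.8 to 114 CPM, against 68.6 to 96.4 CPM. In CDKN2A under NNK it was at 42.0 to 63.6 CPM, against 63.4 to 68.0 CPM. Whether the 2-digit wells are separate cultures was not given.

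DDIT3 moved in opposite directions under CSC in 2 populations. In NRF2 the CSC mean was 7.11 CPM above the DMSO mean, at 36.98, 36.1 and 35.9 CPM, with every CSC well above every DMSO well. In GFP the CSC mean minus the DMSO mean was -17.2 CPM, at 66.4, 65.1 and 53.7 CPM, with every CSC well below. The test of the response to CSC by population over 5 populations gave an adjusted p of 0.788 by limma-voom and did not pass. The responses of NRF2 and GFP were not tested against each other.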

How the results depend on the processing

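Of the calls on single members, DDIT4 against DMSO kept its call in 43 of 43 alternatives for CSC, 43 of 43 for BaP and 57 of 57 for NNK. Calls lost in some alternatives were ATF4 in CSC against NNK (kept in 13 of 43), TRIB3 in NRF2 (7 of 13), DDIT3 and ASNS in NRG1 (5 and 3 of 13) and HERPUD1 in GFP against HcRed (11 of 13). The other called members kept theirs in all alternatives. For TRIB3 in NRF2 and DDIT3 in NRG1 DESeq2 gave no adjusted p-value, which was counted as a call lost. DDIT4 in FAT1 against GFP, at -0.03 under DMSO, was 0.67 over all chemicals (adjusted p = 5.25e-06), which adds the exposed wells.

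The number of members called moved as follows, and the cause was not tested. With all wells as separate samples, or with 2-digit wells summed, it was 4 in both for BaP against DMSO (2 as reported), 4 for NNK against DMSO (2), 3 for CSC against BaP (1) and 2 for BaP against NNK (1). With a single fit over all groups it was 4 for NNK against DMSO, 1 for CSC against NNK (2) and 0 for NRG1 (2). Leaving out population NRG1 gave 5 for NNK against DMSO, leaving out FAT1 gave 2 for CSC against BaP, and leaving out FAT1, GFP, HcRed, NRF2 or PIK3CA gave 1 each for CSC against NNK. The edgeR test gave 2 for CSC against BaP and 5 for GFP against HcRed (3), and DESeq2 gave 2, 1 and 0 for CSC against BaP, CSC against NNK and NRG1. No filter gave 1 for CSC against NNK and 0 for NRG1, and median-ratio factors 1 for CSC against NNK. All chemicals together gave 6 for GFP against HcRed, 5 for FAT1 (3), 2 for PIK3CA (1) and 0 for NRG1.

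The replicate block treats same-numbered wells as pairs. It gave 2 members for CSC against BaP, 1 for CSC against NNK and 5 for GFP against HcRed. No other count moved by over 1.5 times with it. Leaving out 1 well at a time gave 1 to 1 members for CSC against DMSO, 2 to 3 for BaP against DMSO, 2 to 5 for NNK against DMSO, 1 to 2 for CSC against BaP, 1 to 2 for CSC against NNK, 1 to 1 for BaP against NNK, 2 to 3 for NRF2, 1 to 1 for FGFR1, 0 to 1 for NRG1, 1 to 2 for PIK3CA (2 without the third HcRed well), 3 to 5 for FAT1 and 2 to 5 for GFP against HcRed (5 without the third GFP well in both), 2 to 3 for CDKN2A and 0 to 0 for the responses by population.

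Counts over all genes moved more. NNK against DMSO called 489 to 2145 genes over the other alternatives (819 as reported, 2230 without the NRG1 well that stood apart), CSC 440 to 1130 (662), BaP 694 to 1924 (1030), CSC against BaP 311 to 1119 (517), CSC against NNK 767 to 1463 (1366) and BaP against NNK 56 to 366 (112). NRF2 called 199 to 1199 (552), FGFR1 46 to 364 (103), NRG1 48 to 375 (351), PIK3CA 329 to 1462 (603), FAT1 841 to 3696 (1572), CDKN2A 1252 to 2248 (2070), GFP against HcRed 671 to 2559 (1201), and the responses to CSC, BaP and NNK 1 to 48 (12), 1 to 39 (13) and 1 to 10 (2). Leaving out 1 well moved some of these further: the response to CSC to 63, 31 and 19 genes without the first or second FAT1 CSC or the first FAT1 DMSO well, the response to NNK to 14, 7 and 16 without NRG1 NNK wells 1, 2 and 3 and to 1 without GFP NNK well 1 or 3, and BaP against NNK to 567 without the second NRG1 NNK well. FGFR1 went to 316 without its well 3, 61 without its well 1, and 53, 50 and 60 without each HcRed well in turn, and NRG1 to 220 without the second HcRed well and 204 without its own first. With median-ratio factors NNK called 492 higher and 368 lower genes, against 347 and 472. In alternatives chosen after seeing the data, the number of called genes stayed within 1.5 times in 101 of 104 pairs of list and comparison with median-ratio factors (3 moved), and in 4 of 16 without the second NRG1 NNK well (12 moved), and the correlations without that well were added in the same way. ATF3, CHAC1 and SESN2 had a median of 3 counts per well, and what that depth did to their calls was not tested.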

Other observations

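The second NRG1 well under NNK differed from its replicates in many genes, with ER chaperones and amino acid transporters among them. Its total was 1474903 counts, against 1474996 and 1210147, and 13215 genes had a count, against 12006 and 11604. Of 5515 genes at 10 CPM or more, 62.2% lay above both replicates, with a median ratio of 1.32 to their mean. HSPA5 was at 399 CPM against 159 and 152 CPM. Of 13 ER chaperones and folding enzymes 12 lay above both (median ratio 2.28), HSP90B1 at 567 CPM against 215 and 217 CPM among them. All 7 amino acid transporters did too (median ratio 2.49), with SLC7A5 at 257 CPM against 60.3 and 61.2 CPM. DDIT3, at 40.0 CPM, lay between its replicates at 45.4 and 28.9 CPM. What set this well apart was not tested.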
